A study of Mus musculus with 17 samples.

Results

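A set of 9 scavenger receptor genes, Marco among them, was followed over all polyA RNA-seq libraries of a study of AP-1 transcription factors in mouse macrophages. The genes were Marco, Msr1, Cd36, Cd68, Cd163, Scarb1, Scarb2, Stab1 and Olr1, which are 9 of the 24453 gene models measured. They were chosen by symbol, and the family was selected on the level of Marco in JunDKO cells, so that JunDKO against Scramble is given as a description, without p-values and with nothing read from its counts.

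The cells were of 2 kinds. Immortalised bone marrow-derived macrophages (iBMDMs) are male C57Bl/6EiJ bone marrow cells carrying BRAF(V600E) and Myc, and every iBMDM group shared these transgenes, Cas9 and the vehicle treatment. They were labelled Scramble Control (zsGreen in the titles), Atf3KO, JunKO or JunDKO, the last being an edit of Jund, with 2 libraries in each group. Per the methods of the study each knockout came from a lentivirus with 2 guides against the gene, and infected cells were sorted on a fluorescent protein carried by the virus. Those methods do not describe the growth of single clones. Thioglycollate-elicited macrophages (TGEMs) are primary cells drawn to the peritoneum of male mice by an irritant, which were given PBS as vehicle or, over 1 h, the TLR4 ligand Kdo2 lipid A (KLA). There was 1 library of each treatment from C57Bl/6EiJ mice, while Balb/cJ mice supplied 1 with vehicle and 2 with KLA. The question was which receptors differ in level with each AP-1 member, with KLA, with strain and with the kind of macrophage.

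The libraries held 1553296 to 18444431 reads, as recovered from the steps of the RPKM values (reads per kilobase of exon, scaled to library depth). The libraries labelled Atf3KO stood apart from the other iBMDM libraries, with reads in 10425 and 10631 gene models against 11884 to 12533, and replicate 2 of Atf3KO carries another label date than the other iBMDM libraries. The mRNA of the edited genes did not check the labels, because a small edit can leave the transcript in place. The study checked the edits by western blot, which is not among these data. Atf3 mRNA was at 80.7 and 77.4 RPKM in Scramble and, against the direction of its label, at 154 and 169 in libraries labelled Atf3KO. Jun measured 17.6 and 18.5 in Scramble and 26.2 and 20.5 in libraries labelled JunKO. Jund measured 9.19 and 8.33 in Scramble and 6.94 and 6.07 in libraries labelled JunDKO. The libraries labelled Atf3KO also held more Jund, at 22.6 and 83.0 RPKM, and their Jun stood at 17.9 and 46.2, with replicates 1 and 2 far apart for both genes. The part of these levels in the results of Atf3KO was not tested. All 9 macrophage markers examined, such as Csf1r and Adgre1, were above 1 RPKM in all 13 libraries. Their sum ran from 22167 to 23631 RPKM in Scramble, from 23779 to 32672 in Atf3KO, from 30511 to 30708 in JunKO, from 16567 to 17004 in JunDKO and from 6318 to 8292 in TGEMs, and its part in the results was not tested. Most of the sum was Lyz2, at 21520 and 20190 RPKM in Scramble and 15109 and 14815 in JunDKO. Other markers did not all follow it. In JunDKO Csf1r was higher, at 703 and 562 against 474 and 350 in Scramble, and Adgre1 lower, at 424 and 471 against 669 and 744.

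Scavenger receptors are membrane proteins that bind modified lipoproteins, microbes, dead cells and other polyanionic debris and bring them into the cell. Class A receptors are collagen-like trimers, of which MARCO binds bacteria and inhaled particles and is a mark of alveolar and marginal zone macrophages, while MSR1 takes up acetylated and oxidised low-density lipoprotein. Class B receptors cross the membrane at both ends. CD36 binds oxidised lipoprotein and carries long-chain fatty acids, SR-B1, made from Scarb1, exchanges cholesterol with high-density lipoprotein, and LIMP-2, made from Scarb2, carries glucocerebrosidase to lysosomes. CD68 is a heavily glycosylated lysosomal protein of macrophages, stabilin-1, made from Stab1, clears acidic matrix proteins and dying cells, LOX-1, made from Olr1, is a lectin-like receptor for oxidised lipoprotein, and CD163 takes up haemoglobin bound to haptoglobin.

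AP-1 dimers bind the sequence TGACTCA, and so the windows from 250 bases before to 50 bases after the RefSeq transcription start were read on GRCm38.p6, the coordinates of mm10, for the 7 of 9 receptors that had one. TGACTCA or its reverse complement TGAGTCA was found in the windows of Cd68 and Olr1 and in 5.20% of all 32851 windows. It was not found in those of Marco, Cd36, Scarb2, Stab1 and Cd163, which says only that these letters are not in these 300 bases. The letters of the cyclic AMP response element (TGACGTCA, 1.79% of windows), of a PU.1 site (GAGGAAGT or ACTTCCTC, 3.20%) and of an E-box (CACGTG, 7.15%) were not found in any of the 7 windows. No match overlapped another in these windows. A match is a run of letters and not a measured binding site. The windows of Marco, which had the widest range of levels in iBMDMs, of Cd68, which held 2 matches, and of Olr1, which had the highest fold change with KLA, are shown 5′ to 3′ on the gene's strand with TGAGTCA in capitals.
Marco, chr1:120504975-120505274, minus strand: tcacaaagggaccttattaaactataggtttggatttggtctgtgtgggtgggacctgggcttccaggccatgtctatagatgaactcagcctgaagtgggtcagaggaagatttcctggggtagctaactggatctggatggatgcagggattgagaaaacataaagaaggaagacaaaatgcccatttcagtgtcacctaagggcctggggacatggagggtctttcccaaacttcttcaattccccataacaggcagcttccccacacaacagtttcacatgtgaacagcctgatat
Cd68, chr11:69666121-69666420, minus strand: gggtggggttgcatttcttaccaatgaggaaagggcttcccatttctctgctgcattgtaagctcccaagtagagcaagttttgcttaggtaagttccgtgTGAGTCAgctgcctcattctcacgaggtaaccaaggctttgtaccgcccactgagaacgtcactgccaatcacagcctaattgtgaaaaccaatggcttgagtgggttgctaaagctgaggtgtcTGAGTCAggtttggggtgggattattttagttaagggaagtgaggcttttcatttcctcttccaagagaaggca
Olr1, chr6:129507116-129507415, minus strand: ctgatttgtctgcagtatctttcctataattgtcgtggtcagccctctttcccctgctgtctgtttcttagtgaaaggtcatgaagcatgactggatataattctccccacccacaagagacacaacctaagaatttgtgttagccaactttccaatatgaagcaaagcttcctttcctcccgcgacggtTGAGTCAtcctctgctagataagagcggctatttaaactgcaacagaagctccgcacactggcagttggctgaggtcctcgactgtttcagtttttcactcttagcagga

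In the Olr1 window the match began at base -60 from the start, and in the Cd68 window the matches began at -149 and -24. The gene model of Marco used for the levels began inside its window, 5′ of the RefSeq start, on chromosome 1 from 120474538 to 120505084, and those of Cd68 (chromosome 11, 69664213 to 69666170) and Olr1 (chromosome 6, 129485248 to 129507165) began at the start used for the windows. The model used for Cd36 ran on chromosome 5 from 17781690 to 17849792 on the minus strand, while its window, from 17835847 to 17836146, lay inside the model and away from its 5′ end, so that the absence of matches there says nothing of the start of that model.

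**Figure D1:**
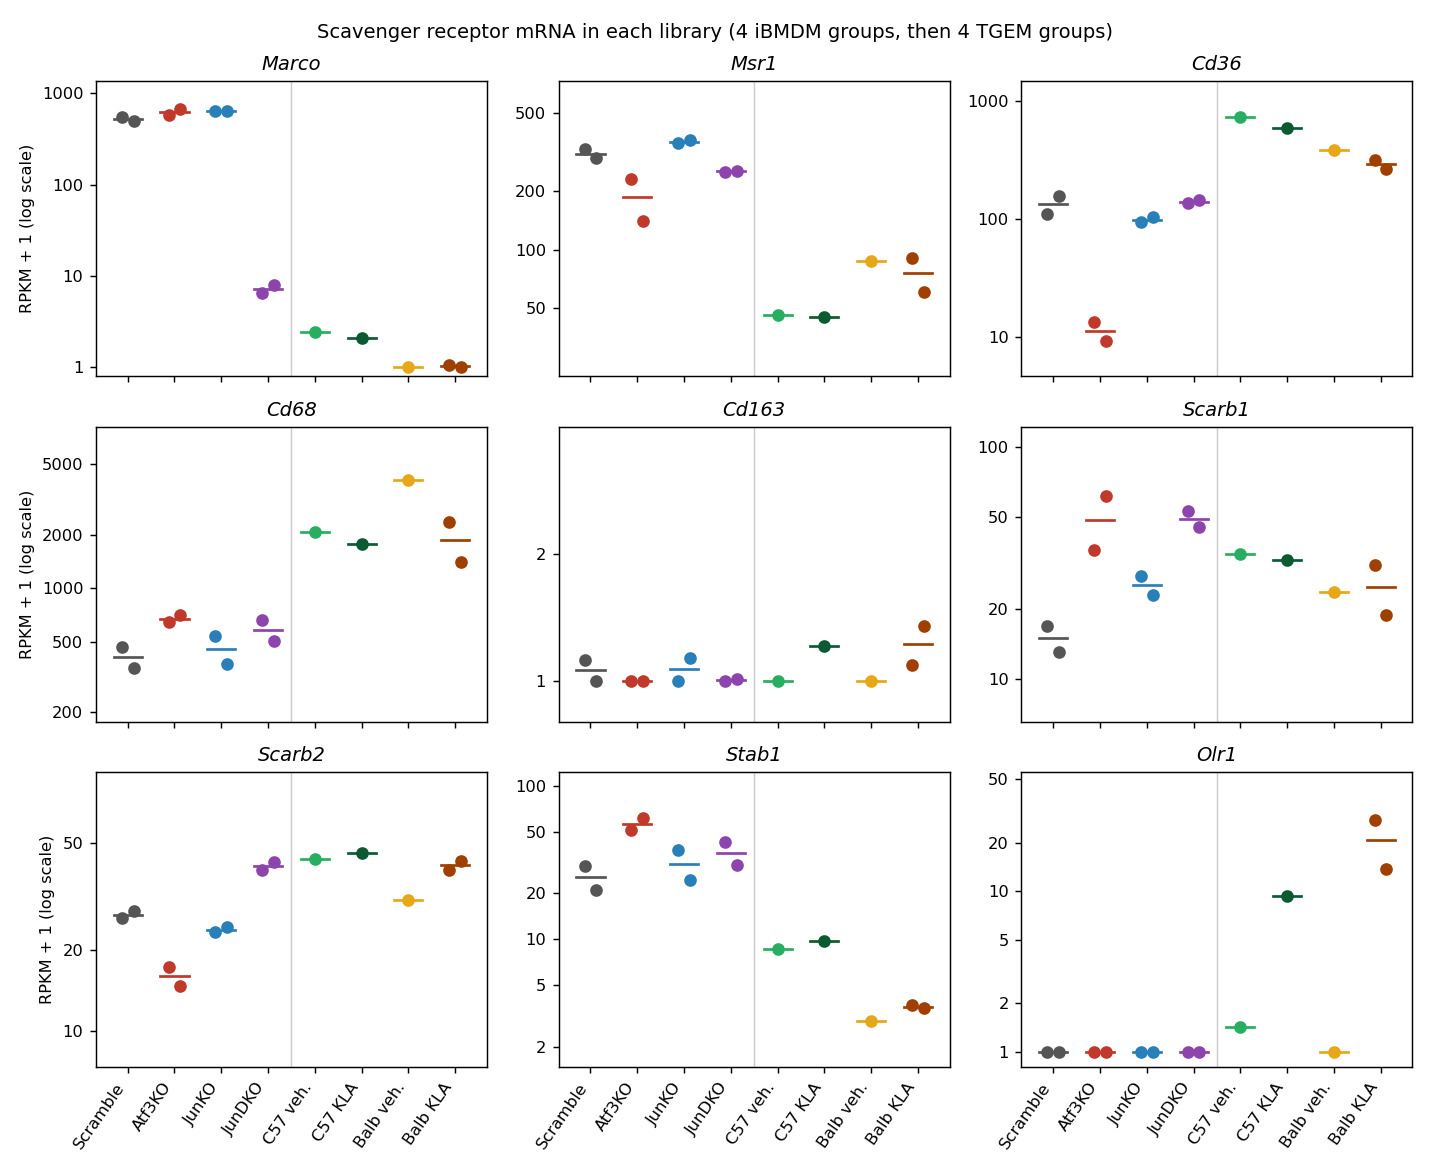
RPKM + 1 on a log axis for each of the 9 receptors (panels) in every library (points), with the group mean as a line and the iBMDM groups left of the grey bar. Marco sits between 503 and 683 RPKM in Scramble, Atf3KO and JunKO, at 5.57 and 6.92 in JunDKO and at or below 1.43 in TGEMs, Cd36 is lowest in Atf3KO, and Olr1 is highest in the 3 KLA libraries.

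Marco was among the most abundant transcripts of iBMDMs not edited at Jund and was low in JunDKO iBMDMs and in TGEMs. Its RPKM was 557 and 503 in Scramble, 574 and 683 in Atf3KO and 641 and 650 in JunKO, and it ranked between 46th and 64th of all genes in these 6 libraries. In JunDKO it measured 5.57 and 6.92 RPKM, from 17 and 251 reads. The JunDKO libraries lay far below the other iBMDM libraries with no overlap, and the mean was 6.24 ± 0.96 RPKM (SD, n = 2) against 530 ± 38.0 in Scramble. With the reads of each group pooled, which gives the deeper JunDKO replicate 2 most weight, Marco reads per library read were 78.0-fold fewer, with a 95% interval of 68.9 to 88.6 that covers counting error only. On the log2(RPKM + 1) scale the difference was -6.20 ± 0.18 (SE). In these bulk libraries fewer cells with Marco mRNA and less Marco mRNA per cell cannot be told apart. The S100a8 transcript, in the neutrophil marker list, was like Marco low in JunDKO, while in JunKO Marco lay above Scramble and S100a8 below it. It stood at 34.8 and 33.2 RPKM in Scramble, at 41.1 and 21.8 in Atf3KO, at 22.7 and 24.1 in JunKO and at 0 in both JunDKO libraries, while 6 of the 8 neutrophil markers, Ly6g, Mpo, Elane, Camp, Ngp and S100a9, were at 0 in all 8 iBMDM libraries. The summed neutrophil list ran from 33.2 to 35.0 RPKM in Scramble, from 21.8 to 41.1 in Atf3KO and from 22.7 to 24.1 in JunKO and was 0 in JunDKO, and its part in the result was not tested. Over the eosinophil list the sum was 0 in Atf3KO, 1.59 to 2.56 RPKM in Scramble, 3.41 to 5.18 in JunKO and 6.02 to 6.15 in JunDKO, most of it Ccr3, with the granule genes Prg2 and Epx at 0 in all iBMDM libraries, and its part was not tested either.

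Marco did not pass the test against Scramble in Atf3KO or in JunKO. The log2 fold changes were 0.24 ± 0.18 (SE, n = 2 per group, limma adjusted p = 0.294) and 0.29 ± 0.18 (adjusted p = 0.787), and Atf3KO differed from JunKO by -0.04 ± 0.18 (adjusted p = 0.867). Primary TGEMs held little Marco. The C57Bl/6EiJ libraries measured 1.43 RPKM with vehicle (32 reads) and 1.09 with KLA (7 reads), and the Balb/cJ libraries measured 0 with vehicle and 0.059 and 0 with KLA, the 0.059 coming from 2 reads. Summed over treatments the C57Bl/6EiJ libraries held 39 reads and the Balb/cJ libraries 2, a ratio of read rates of 34.8 with a 95% counting interval of 9.01 to 298. C57Bl/6EiJ vehicle TGEMs lay below Scramble by -7.77 ± 0.22 (SE, 1 library against 2, with the spread taken from the other groups). Scramble held 372 times the read rate (263 to 545, counting error only). The Scramble level was part of the contrast that chose the family, so these values are a description. The JunDKO read rate was still 4.78 times (3.30 to 7.12) that of C57Bl/6EiJ vehicle TGEMs.

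Msr1, the other class A receptor, was abundant in all iBMDM groups and lower in TGEMs. Scramble held 326 and 292 RPKM, Atf3KO 229 and 139, JunKO 349 and 363 and JunDKO 250 and 251. The iBMDM groups did not overlap, with JunKO highest and Atf3KO lowest. TGEMs measured 45.3 (C57Bl/6EiJ vehicle), 43.9 (C57Bl/6EiJ KLA), 86.6 (Balb/cJ vehicle) and 89.7 and 59.6 (Balb/cJ KLA), all below the iBMDM libraries. Against Scramble the log2 fold change was -0.79 ± 0.23 in Atf3KO (limma adjusted p = 0.0284), under the 2-fold limit, and 0.21 ± 0.23 in JunKO (adjusted p = 0.921). For JunDKO it was -0.30 ± 0.23. Without Atf3KO replicate 1 the change in Atf3KO passed the call (-1.15, adjusted p = 0.00432), while without Atf3KO replicate 2 it was -0.43 (adjusted p = 0.0735). The adjusted p was 0.122 and 0.0928 without Scramble replicate 1 and 2, 0.0863 in a fit of the Atf3KO and Scramble libraries alone and 0.0523 without the filter on low values. Atf3KO lay below JunKO by -0.99 ± 0.23 (adjusted p = 0.0145), which passed 2-fold with equal library medians (-1.09), quantile normalization (-1.05), limma-voom (-1.02) or without Atf3KO replicate 1 (-1.35). The difference shrank to -0.63 under GC correction and likewise to -0.63 when Atf3KO replicate 2 was left out, and its adjusted p was 0.0598 and 0.0901 without JunKO replicate 1 and 2. C57Bl/6EiJ vehicle TGEMs were lower than Scramble by -2.74 ± 0.33. Msr1 and Marco, of the same class, were thus both lower in TGEMs than in Scramble, while the mean of Msr1 was 250 RPKM in JunDKO and 309 in Scramble.

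Cd36, the fatty acid and oxidised lipoprotein receptor, was the member with the lowest log2 fold change in Atf3KO. Levels were 110 and 156 RPKM in Scramble, 92.4 and 102 in JunKO, 135 and 145 in JunDKO, but 12.3 and 8.29 in Atf3KO. The libraries labelled Atf3KO lay below all others, while JunDKO and Scramble overlapped. The change in Atf3KO was -3.57 ± 0.24 against Scramble (SE, limma adjusted p = 1.10e-04) and -3.14 ± 0.24 against JunKO (adjusted p = 2.17e-04), and it passed the call in all 14 alternatives tried against Scramble, in which it ran from -3.83 to -2.63. In JunKO the difference from Scramble was -0.43 ± 0.24 (adjusted p = 0.750), and for JunDKO it was 0.09 ± 0.24. TGEMs held more Cd36, with 738 and 593 RPKM in the C57Bl/6EiJ vehicle and KLA libraries and 385, 318 and 263 in the Balb/cJ libraries, vehicle first. C57Bl/6EiJ vehicle TGEMs exceeded Scramble by 2.49 ± 0.29. Balb/cJ TGEMs lay below C57Bl/6EiJ TGEMs by -0.99 ± 0.26 without passing the test (adjusted p = 0.0973). The adjusted p ran from 0.0228 to 0.398 over the alternatives, and the strain difference passed the call after a correction for GC content (-1.34, adjusted p = 0.0406).

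Scarb1, the high-density lipoprotein receptor, was higher in the libraries labelled Atf3KO than in Scramble. Its 2 Scramble values were 15.9 and 12.1 RPKM, beside 26.7 and 22.1 in JunKO, 34.8 and 60.05 in Atf3KO and 51.9 and 44.0 in JunDKO. Scramble was lowest and did not overlap with any knockout group, while Atf3KO and JunDKO overlapped. The log2 fold change was 1.65 ± 0.28 in Atf3KO (limma adjusted p = 0.00350) and 0.76 ± 0.28 in JunKO (adjusted p = 0.519). For JunDKO it was 1.71 ± 0.28. TGEMs gave 33.5 and 31.6 RPKM for C57Bl/6EiJ vehicle and KLA, 22.7 for Balb/cJ vehicle and 30.03 and 17.9 for Balb/cJ KLA, all above Scramble. The difference between C57Bl/6EiJ vehicle TGEMs and Scramble was 1.21 ± 0.39. It was 1.03 with Scramble replicate 2 left out, 0.94 with the vehicle libraries of both strains and 0.80 after GC correction.

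Scarb2, the lysosomal member of class B, ranged from 13.6 to 44.8 RPKM over all libraries. JunDKO gave 38.4 and 41.3 RPKM, Scramble 25.2 and 26.8, JunKO 22.2 and 23.2 and Atf3KO 16.3 and 13.6. TGEMs gave 42.5 (C57Bl/6EiJ vehicle), 44.8 (C57Bl/6EiJ KLA), 29.5 (Balb/cJ vehicle) and 38.7 and 41.6 (Balb/cJ KLA). The order in iBMDMs was JunDKO, Scramble, JunKO and Atf3KO with no overlap between neighbours. Against Scramble the change in Atf3KO was -0.76 ± 0.18 (limma adjusted p = 0.0109) and the change in JunKO -0.19 ± 0.18 (adjusted p = 0.894). For the former the adjusted p was 0.0668 without Scramble replicate 2 and 0.0530 in a fit of both groups alone. For JunDKO the difference was 0.60 ± 0.18. In C57Bl/6EiJ vehicle TGEMs it was 0.69 ± 0.20, under 2-fold, and 1.26 after GC correction.

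Cd68 was the most abundant of the receptors in Atf3KO, in JunDKO and in all TGEM groups. Scramble libraries had 467 and 353 RPKM, Atf3KO 639 and 705, JunKO 534 and 371, and JunDKO 662 and 502, with each of these groups overlapping its neighbour in the order of levels. TGEMs measured 2053 and 1769 RPKM in the C57Bl/6EiJ vehicle and KLA libraries, 4050 in the Balb/cJ vehicle library and 2338 and 1404 in the Balb/cJ KLA libraries. The lowest TGEM library was above the highest iBMDM library. The log2 fold change over Scramble was 0.72 ± 0.24 in Atf3KO (limma adjusted p = 0.0441), 0.13 ± 0.24 in JunKO (adjusted p = 0.956) and 2.33 ± 0.37 in C57Bl/6EiJ vehicle TGEMs. For JunDKO it was 0.50 ± 0.24. In Atf3KO the adjusted p was over 0.05 with any 1 library left out (0.0777 and 0.152 without Atf3KO replicate 1 and 2, 0.0572 and 0.243 without Scramble replicate 1 and 2). It was also 0.0659 with equal library medians, 0.0521 with quantile normalization, 0.0857 without the filter and 0.0719 in a fit of the Atf3KO and Scramble libraries alone.

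Stab1, the receptor for matrix debris, was higher in iBMDMs than in TGEMs. Values of 29.1 and 20.0 RPKM in Scramble stood beside 36.9 and 23.2 in JunKO, 41.8 and 29.3 in JunDKO, and 50.1 and 60.4 in Atf3KO, and Atf3KO alone did not overlap with the other iBMDM groups. The change in Atf3KO was 1.16 ± 0.29 (SE, limma adjusted p = 0.0160), and the call was lost after GC correction (0.55, adjusted p = 0.0433), after quantile normalization (0.96) and without Atf3KO replicate 2 (adjusted p = 0.0881) or Scramble replicate 2 (adjusted p = 0.117). The difference was 0.27 ± 0.29 in JunKO (adjusted p = 0.912), and for JunDKO it was 0.52 ± 0.29. TGEMs measured 7.61 and 8.81 RPKM in C57Bl/6EiJ and 1.94, 2.72 and 2.55 in Balb/cJ libraries. The C57Bl/6EiJ vehicle library lay below Scramble by -1.54 ± 0.35. The Balb/cJ libraries lay below C57Bl/6EiJ by -1.48 ± 0.24 (adjusted p = 0.0293), a difference at levels under the 16 RPKM asked for a call, and after GC correction it was -1.09 (adjusted p = 0.0716). With 1 TGEM library left out it lay between -1.55 and -1.43, with an adjusted p of 0.106 to 0.215 except without Balb/cJ KLA replicate 2 (0.0383).

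Olr1, the gene of LOX-1, was detected in TGEMs and not in iBMDMs, and was high after KLA. All 8 iBMDM libraries held 0 reads of it, which allows up to 3 reads over these libraries or 0.0255 RPKM. In C57Bl/6EiJ TGEMs it measured 0.433 RPKM with vehicle (15 reads) and 8.29 with KLA (82 reads), a ratio of read rates of 19.2 with a counting interval of 11.0 to 35.8. In Balb/cJ TGEMs it measured 0 with vehicle and 26.7 (1400 reads) and 12.8 (256 reads) with KLA, which against a floor of 3 reads in the vehicle library is at least 54.3-fold higher, and at least 63.4-fold higher with the KLA library of the same label date. All 3 KLA libraries were above both vehicle libraries. The log2 fold change adjusted for strain was 3.61 ± 0.45 (SE, 3 KLA against 2 vehicle libraries, limma adjusted p = 0.00906), but the mean of 15.9 RPKM in KLA was just below the 16 RPKM asked for a call. The vehicle levels of Olr1 were under the 1 RPKM asked for testing. It was thus tested only through the KLA libraries where it was high, and this p is a description. The call was passed with equal library medians (3.69) and with quantile normalization (3.62). Left out in turn, the C57Bl/6EiJ KLA library (4.29) and Balb/cJ KLA replicate 2 (3.74) also gave a call, and without the Balb/cJ vehicle library the adjusted p was 0.320. With limma-voom on the recovered reads it was 0.0610, without the filter on low values 0.124, with label date in place of strain 0.0723, with a pseudocount of 5 it was 0.0518, and without Balb/cJ KLA replicate 1 it was 0.0535. Over these alternatives it ran from 2.89e-04 to 0.320. The difference between strains in the response to KLA was 1.59 ± 0.75 (Balb/cJ minus C57Bl/6EiJ, adjusted p = 0.674, 1 residual degree of freedom).

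Cd163, the haemoglobin receptor, was near the detection limit in every library. All iBMDM libraries together held 3 reads and the TGEM libraries 20, a ratio of read rates of 6.32 (95% counting interval 1.87 to 33.2), and no library exceeded 0.346 RPKM. The TGEM reads were all in KLA libraries (3 in C57Bl/6EiJ, 7 and 10 in Balb/cJ), with 0 in both vehicle libraries. The ratio thus pools treatments and does not compare untreated cells. It was too low to be tested in any comparison.

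**Figure D2:**
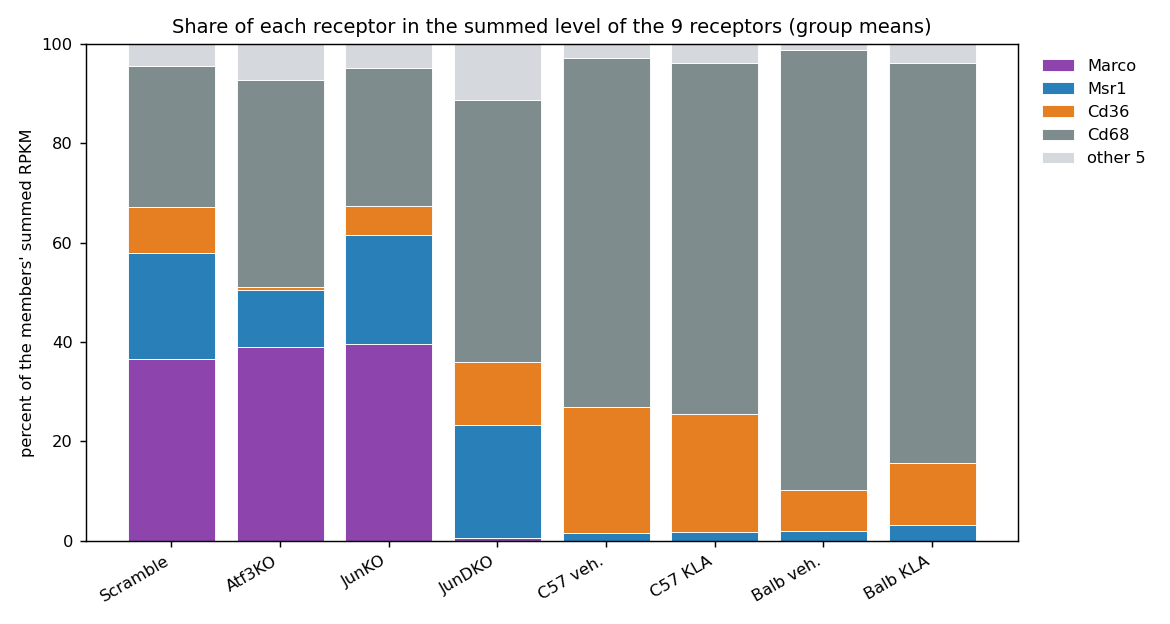
Percent of the summed RPKM of the 9 receptors taken by Marco, Msr1, Cd36, Cd68 and the other 5, from group means (bars sum to 100). Marco takes 36.6% in Scramble and 0.567% in JunDKO, and Cd68 takes 52.8% in JunDKO and 70.3% to 88.5% in TGEMs.

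The make-up of the receptor set therefore differed between groups. RPKM is per length, so that levels can be added over genes. Marco was 36.6% of the summed level in Scramble (1447 RPKM in all), 39.0% in Atf3KO, 39.6% in JunKO and 0.567% in JunDKO, where the sum was 1102 RPKM. Cd68 held 28.3% in Scramble and 52.8% in JunDKO. In C57Bl/6EiJ vehicle TGEMs the sum was 2922 RPKM, of which Cd68 held 70.3% and Cd36 25.3%, and in Balb/cJ vehicle TGEMs it was 4576 RPKM, of which Cd68 held 88.5% and Cd36 8.42%.

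**Figure D3:**
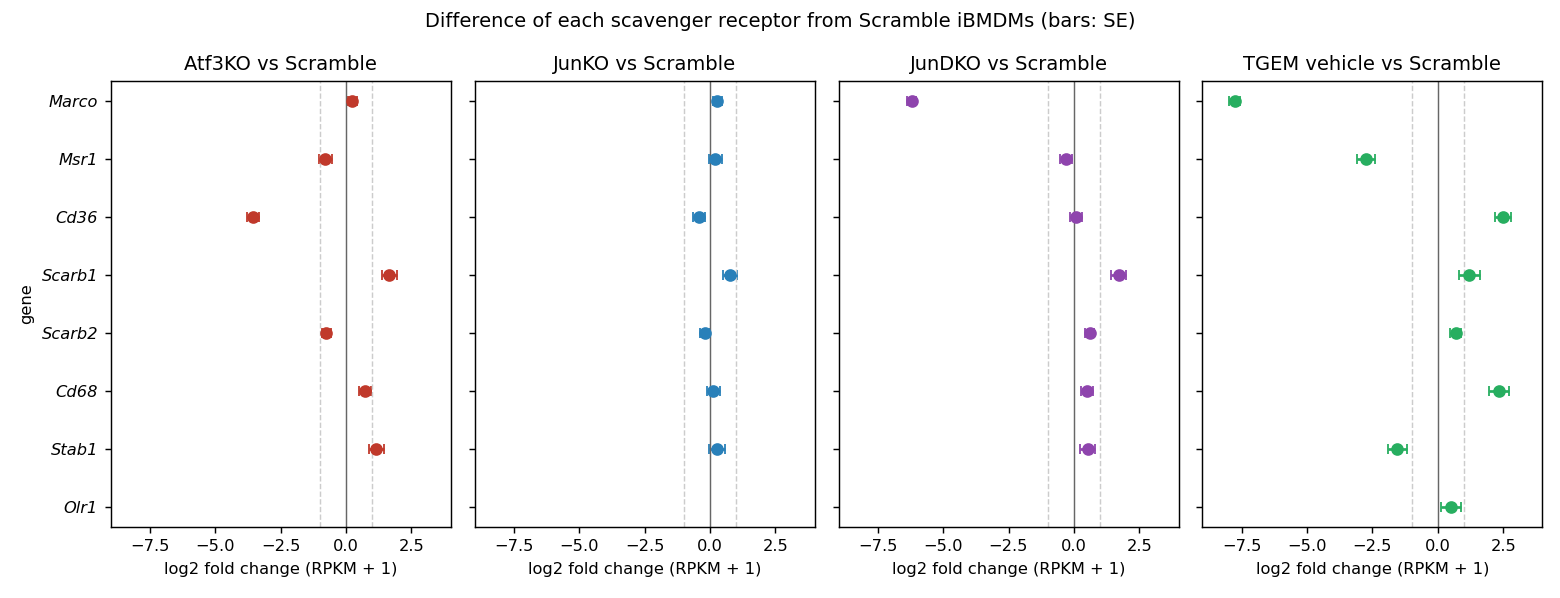
Log2 fold change on the RPKM + 1 scale of each tested receptor from Scramble iBMDMs in Atf3KO, JunKO, JunDKO and C57Bl/6EiJ vehicle TGEMs, with SE bars, a solid line at 0 and dashed lines at a 2-fold change. Marco is at -6.20 in JunDKO and -7.77 in TGEMs, Cd36 at -3.57 in Atf3KO and 2.49 in TGEMs, and no receptor passes 2-fold in JunKO.

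Counts of members were set beside those of all genes. A call required an adjusted p under 0.05, a difference of 2-fold or more and 16 RPKM or more as the mean of either side, and all comparisons with Scramble share its 2 libraries. Of 7 members tested in Atf3KO, 2 were called higher (Scarb1, Stab1) and 1 lower (Cd36), where 7.84% of all 10691 genes were called higher and 4.69% lower. An adjusted p under 0.05 alone was reached by 6 of 7 members (all but Marco) and by 41.2% of all genes. With 1 library left out 2 to 5 members reached it, the 2 without Scramble replicate 2 being Cd36 and Scarb1. The median log2 fold change of the 7 members was 0.24 and that of all genes 0.05. Of all calls 62.6% were higher, and 50.0% with equal library medians and 47.1% with quantile normalization. In JunKO 0 of 7 members were called by limma and 0 reached an adjusted p under 0.05, where 0.103% of genes were called higher and 0.0935% lower. Over all genes 30 reached that adjusted p and 842 an unadjusted p under 0.05, Scarb1 among the latter (unadjusted p = 0.0249). The median was 0.21 for the members and 0.01 for all genes.

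In JunDKO Marco was past the same limits on the lower side and Scarb1 on the higher side, as were 2.27% of all genes lower and 2.69% higher. This contrast was used to choose the members and the outcome for Marco was thereby fixed, so nothing is read from these counts. The median of all genes there was 0.23, and with library medians made equal it was -0.03, at which Marco stood at -6.48, Scarb1 at 1.42, Msr1 at -0.60, Cd36 at -0.21 and Scarb2, Cd68 and Stab1 between 0.20 and 0.30. The sign for Cd36 thus followed the scaling, and it was also negative with 1 library left out (-0.16 at the lowest). Of all calls 54.2% were higher, against 28.1% with equal library medians and 39.4% with quantile normalization.

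Tested directly, Atf3KO and JunKO differed in 1 of 7 members, Cd36, called lower where 3.68% of genes were called lower and 6.03% higher. An adjusted p under 0.05 was reached by 5 of 7 members (Cd36, Msr1 and Scarb2 lower, Scarb1 at 0.89 ± 0.28 and Stab1 at 0.89 ± 0.29 higher, limma) and by 35.5% of all genes. With a replicate block, GC correction, equal library medians, quantile normalization or no filter 3 of 7 members reached it. With 1 library left out 1 to 4 members reached it. Msr1 and Scarb1 were also called without Atf3KO replicate 1, and Stab1 without JunKO replicate 1. Of all calls 62.1% were higher, against 50.0% with equal library medians and 45.8% with quantile normalization. The median was -0.04 for the members and 0.04 for all genes.

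In TGEMs KLA gave 0 of 7 members called by limma, where 1% of all 10357 genes were called higher and 0.126% lower. Olr1, tested only through its KLA libraries, was the member with an adjusted p under 0.05, among 158 genes, and 1553 genes had an unadjusted p under 0.05. Cd68 was -0.75 ± 0.34 (adjusted p = 0.355), Cd36 -0.37 ± 0.26 (adjusted p = 0.522), Scarb2 0.28 ± 0.25, Stab1 0.26 ± 0.24, Msr1 -0.16 ± 0.29 and Scarb1 -0.01 ± 0.30, where the median of all genes was -0.15, and -0.02 with equal library medians. Within a label date Cd68 differed by -0.79 in Balb/cJ and -0.21 in C57Bl/6EiJ, Cd36 by -0.28 and -0.31 and Olr1 by 4.79 and 2.70, with 1 library on each side. The strains also gave 0 of 7 members called, where 0.386% of genes were called higher in Balb/cJ and 0.772% lower, 239 genes had an adjusted p under 0.05 (Stab1 among them) and 2213 an unadjusted p under 0.05. Msr1 was 0.81 ± 0.29 (adjusted p = 0.172). Of all strain calls 33.3% were higher in Balb/cJ, against 50.9% with equal library medians and 51.9% with quantile normalization. The C57Bl/6EiJ libraries carry a label date of their own, so strain and date cannot be told apart. For the interaction of KLA and strain 0 of 7 members and 0 genes passed by limma, with 835 genes at an unadjusted p under 0.05.

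C57Bl/6EiJ vehicle TGEMs are 1 library, so for the members their comparison with Scramble iBMDMs is given as effect sizes, without calls. Cd36, Cd68 and Scarb1 were higher by 2-fold or more, and Marco, Msr1 and Stab1 were lower by as much. Scarb2 and Olr1 differed by less. The median was 0.60 for the 8 members and -0.24 for all 10929 genes, and -0.02 for all genes with equal library medians. At equal medians the 6 members past 2-fold stood in the same directions, from -7.59 for Marco to 2.74 for Cd36. Kind of cell, culture and library series cannot be told apart here. Several lists of markers of other cells were higher in TGEMs. Over 5 B cell markers the sum ran from 11.2 to 25.2 RPKM in TGEMs and from 0 to 0.488 in iBMDMs, over 6 mesothelial and fibroblast markers from 20.3 to 40.6 and from 0 to 0.106, over 4 endothelial markers from 2.16 to 5.60 and from 0.215 to 0.687, and over 4 mast cell markers from 1.78 to 13.3 and from 0 to 0.264. Pax5 and Cd79b, 5 of the mesothelial and fibroblast markers, Tek and 3 of the mast cell markers were at 0 in all iBMDM libraries, and Tek was at 0 in TGEMs too. The neutrophil list went the other way, with sums of 0.794 to 13.4 RPKM in TGEMs against 33.2 to 35.0 in Scramble and 0 in JunDKO. S100a8 made up most of it, at 8.84 RPKM in the C57Bl/6EiJ vehicle library. It stood at 13.2 RPKM in the Balb/cJ vehicle library, where Marco was at 0. Over the resident peritoneal macrophage list the sum ran from 4.41 to 9.06 RPKM in TGEMs and from 0 to 2.12 in iBMDMs, with Gata6 and Timd4 at 0 in all iBMDM libraries. Sums were lower for dendritic cell markers (0.436 to 1.61 in TGEMs, 0 to 0.758 in iBMDMs and 0 in Atf3KO), and the ranges of the kinds of cell overlapped for T cell markers (0 to 1.45 and 0 to 1.42) and eosinophil markers (0.804 to 4.15 and 0 to 6.15). The part of these lists in the TGEM results was not tested.

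**Figure D4:**
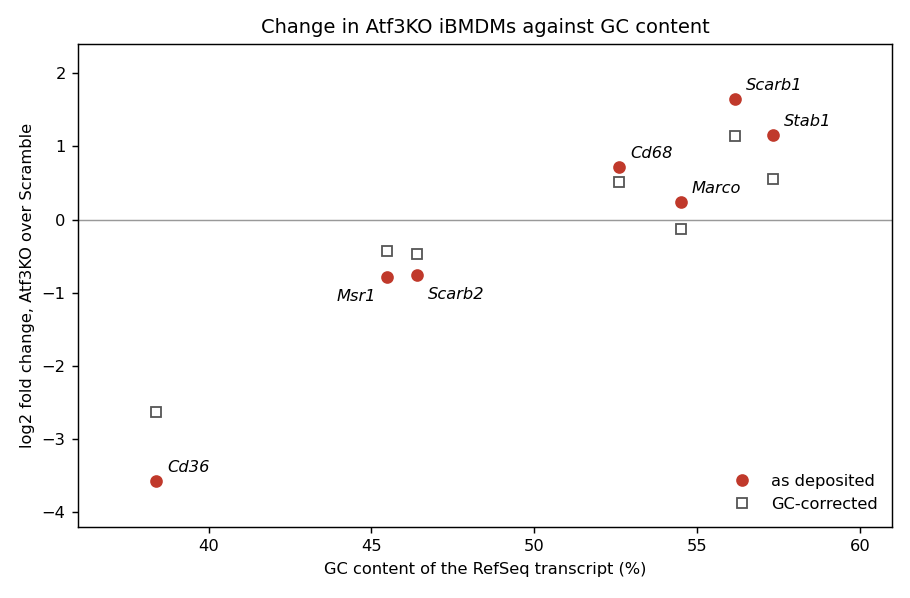
Log2 fold change of Atf3KO over Scramble against the GC content of the RefSeq transcript for the 7 tested receptors, as deposited (filled) and after GC correction (open squares). Cd36, at 38.4% GC, stands at -3.57 and -2.63, and Stab1, at 57.3% GC, at 1.16 and 0.55.

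The changes in the libraries labelled Atf3KO ran with GC content. Cd36 (38.4% GC), Msr1 (45.5%) and Scarb2 (46.4%) were the members with lower values, and Cd68 (52.6%), Marco (54.5%), Scarb1 (56.2%) and Stab1 (57.3%) had higher ones. After a smooth GC trend was removed from each library, Cd36 remained at -2.63 (limma adjusted p = 3.65e-05) and Scarb1 at 1.14 (adjusted p = 0.00110), both past the call, while Stab1 fell under 2-fold, Msr1 was -0.43 (adjusted p = 0.0729), Scarb2 -0.47 (adjusted p = 0.0172), Cd68 0.51 (adjusted p = 0.0458) and Marco -0.13 (adjusted p = 0.528). The part of GC content in the changes was not tested beyond this correction. Atf3KO values of the listed genes below are as deposited, without GC correction. Over all genes the correction left 820 calls in Atf3KO against Scramble in place of 1339.

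Other scavenger receptors were read from a list of 16 genes, of which 6 were high enough to be tested in each comparison. Mrc1, the gene of the mannose receptor, was lowest in Scramble and highest in JunDKO. Scramble had 1.18 and 1.00 RPKM, JunKO 13.98 and 14.3, Atf3KO 16.4 and 12.2, and JunDKO 62.7 and 63.2, with no overlap of Scramble or JunDKO with another iBMDM group, and 13.2 to 38.8 in TGEMs. Over Scramble it was higher by 2.87 ± 0.20 in Atf3KO (limma adjusted p = 1.41e-04) and by 2.86 ± 0.20 in JunKO (adjusted p = 0.00180). The means of 14.3 and 14.2 RPKM were just under the level asked for a call. In C57Bl/6EiJ vehicle TGEMs it was higher than in Scramble by 4.26 ± 0.27. In JunDKO the difference was 4.94 ± 0.20. Colec12, a collectin-type receptor that like MARCO has a collagen-like stalk, measured 204 and 193 RPKM in Scramble, 7.60 and 7.99 in C57Bl/6EiJ TGEMs and 113, 105 and 86.7 in Balb/cJ TGEMs. It was called higher in Balb/cJ by 3.55 ± 0.26 (limma adjusted p = 0.00152). In C57Bl/6EiJ vehicle TGEMs it lay below Scramble by -4.53 ± 0.22. Cd44, the hyaluronan receptor, was the list's call in Atf3KO, at 40.7 against 83.2 RPKM (-1.02 ± 0.18, adjusted p = 0.00412). The list's calls were 1 of 6 tested higher for strain (0.386% of all genes) and 1 lower in Atf3KO (4.69%). The list gave 0 calls by limma in JunKO (0.103% of all genes higher and 0.0935% lower), in Atf3KO against JunKO (6.03% and 3.68%) and with KLA (1% and 0.126%), and its median was 0.37 in Atf3KO, 0.00 in JunKO, 0.38 in JunDKO and 0.43 in TGEMs over Scramble beside 0.05, 0.01, 0.23 and -0.24 for all genes.

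**Figure D5:**
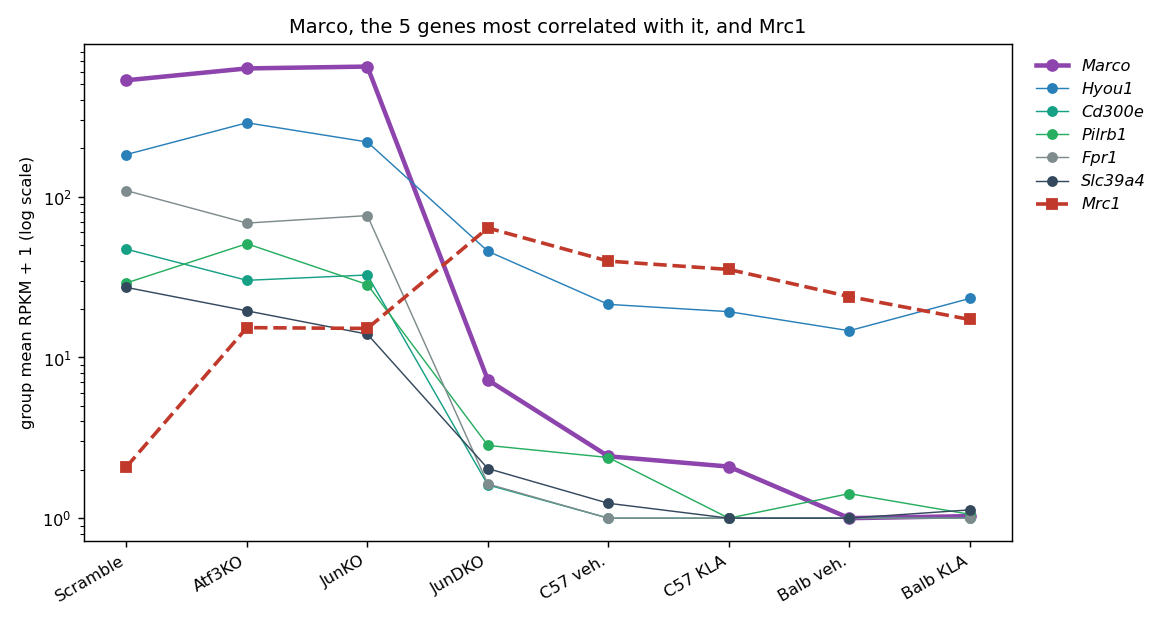
Group mean RPKM + 1 on a log axis for Marco, for the 5 genes whose log2 level correlated most with it over the 13 libraries, and for Mrc1 (dashed). Lines join group means and carry no order. Marco and the 5 genes are all lower in JunDKO and TGEMs than in the other iBMDM groups, while Mrc1 is lowest in Scramble and highest in JunDKO.

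Genes of apoptotic cell uptake were called higher for 4 and lower for 2 of 11 tested in Atf3KO, where 7.84% of all genes were called higher and 4.69% lower, and the list's median was 0.34 beside 0.05 for all genes. Gas6, the ligand that bridges dying cells to MERTK, rose from 42.5 to 189 RPKM (2.10 ± 0.25, limma adjusted p = 9.43e-04), Mertk itself from 7.65 to 26.7 (1.68 ± 0.20, adjusted p = 9.16e-04) and the integrin chain Itgb5 from 25.3 to 75.3 (1.53 ± 0.19, adjusted p = 0.00117), while Itgav fell from 26.0 to 10.4 (-1.23 ± 0.24, adjusted p = 0.00603). In JunKO 0 of 11 were called by limma, where 0.103% of all genes were called higher and 0.0935% lower, with a median of 0.18 (all genes 0.01). With KLA 0 of 13 were called by limma, beside 1% and 0.126% of all genes, with a median of 0.03 (all genes -0.15). Against JunKO, Atf3KO was called higher for 2 of 11, Itgb5 and Mertk, where 6.03% of all genes were called higher. In JunDKO, as a description, mean levels were 124 RPKM for Itgb5, 36.5 for Mertk, 94.3 for Itgav and 129 for Gas6, and the list's median was 1.08 beside 0.23 for all genes. In C57Bl/6EiJ vehicle TGEMs over Scramble the list's median was 1.09 beside -0.24 for all genes. Mfge8, a bridging protein for phosphatidylserine, stood at 1841 against 10.8 RPKM (7.31 ± 0.31). It was lower in Balb/cJ TGEMs, at a mean of 155 against 1894 RPKM (-3.72 ± 0.28, adjusted p = 0.00152), as was its integrin receptor chain Itgb3, at 4.21 against 17.7 (-1.88 ± 0.27, adjusted p = 0.0196), the 2 of 13 called lower where 0.772% of all genes were.

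Lipid uptake, storage and efflux genes had their highest list median in C57Bl/6EiJ vehicle TGEMs over Scramble, with 1 library on the TGEM side. Over the 17 genes fitted it was 1.75, beside -0.24 for all genes. Apoe, a carrier in cholesterol efflux, measured 4567 against 5.11 RPKM. Pparg, the nuclear receptor that drives Cd36, measured 34.9 against 1.10 (4.10 ± 0.28). Fabp4, a fatty acid carrier, measured 368 against 28.0 (3.69 ± 0.39) and the lipid droplet coat gene Plin2 997 against 182 (2.45 ± 0.27). In Atf3KO 3 of 16 were called higher (7.84% of all genes), Nr1h2 (56.2 against 16.8 RPKM) and Rxra (19.7 against 6.23 RPKM) among them. The cholesterol exporter Abca1 was the 1 called lower (4.69% of all genes), at 10.9 against 36.5 RPKM (-1.66 ± 0.18, limma adjusted p = 6.42e-04). In JunDKO mean levels were 6.26 RPKM for Abcg1 and 7.61 for Fabp4, against 33.5 and 28.0 in Scramble, and 19.5 for Rxra against 6.23. Against JunKO, Atf3KO was called higher for Nr1h2 and lower for Lpl and Abca1, 1 and 2 of 16 where 6.03% and 3.68% of all genes were called. The list had 0 calls by limma for strain (0.386% of all genes higher, 0.772% lower), KLA (1% and 0.126%) and JunKO (0.103% and 0.0935%), and its median was 0.04 in Atf3KO, 0.03 in JunKO and 0.07 in JunDKO beside 0.05, 0.01 and 0.23 for all genes.

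Among signalling partners of the receptors KLA gave 2 calls of 14, both higher, where 1% of all genes were called higher and 0.126% lower. Cd14, the lipid A co-receptor, rose to a mean of 418 from 31.6 RPKM (3.71 ± 0.50, limma adjusted p = 0.0135) and Tlr2, which works with MARCO and CD36, to 60.7 from 4.40 (3.36 ± 0.45, adjusted p = 0.0123). In C57Bl/6EiJ vehicle TGEMs Tlr2 (5.66 against 61.5 RPKM), Cd81, Cd14 and Lyn were lower than in Scramble. Syk (125 against 54.8 RPKM) and Cd9 (622 against 272 RPKM) were higher. In Atf3KO Fcer1g, the adaptor of activating receptors, was higher (956 against 395 RPKM, 1.27 ± 0.16, adjusted p = 0.00108) and the membrane partners Cd9 (122 against 272 RPKM) and Itgb1 (76.9 against 170 RPKM) were lower, 1 and 2 of 14 where 7.84% and 4.69% of all genes were called. JunKO (0.103% of all genes higher, 0.0935% lower), Atf3KO against JunKO (6.03% and 3.68%) and strain (0.386% and 0.772%) gave 0 calls by limma. The list's median was -0.29 in Atf3KO, -0.15 with KLA and -0.79 in TGEMs over Scramble beside 0.05, -0.15 and -0.24 for all genes.

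Lysosomal membrane genes, partners of LIMP-2 and CD68, were called higher for 9 of 12 and lower for 0 in C57Bl/6EiJ vehicle TGEMs, where 8.16% of all genes were called higher and 12.7% lower, and the list's median was 1.39 beside -0.24 for all genes. The TGEM side is 1 library with no spread of its own, so nothing is read from these counts of calls. As effect sizes, Psap, the precursor of the saposins, stood at 10672 against 894 RPKM (3.58 ± 0.30). Tfeb, the factor of lysosome genes, stood at 44.2 against 4.61 (3.01 ± 0.34) and Lamp1 at 1481 against 469 (1.66 ± 0.24). Laptm5 was the list's call in Atf3KO (509 against 224 RPKM, 1.18 ± 0.22, limma adjusted p = 0.00492), 1 of 12 higher where 7.84% of all genes were. Laptm5 and Mcoln1 were called higher in Atf3KO than in JunKO, 2 of 12 beside 6.03% of all genes. By limma 0 of 12 were called with KLA (1% of all genes higher, 0.126% lower), for strain (0.386% and 0.772%) or in JunKO (0.103% and 0.0935%). Of 8 genes of haemoglobin and haem handling, the ligand system of CD163, Hp, the haptoglobin gene, was called higher in Atf3KO (99.4 against 10.4 RPKM, 3.15 ± 0.21, adjusted p = 1.14e-04) and in JunKO (46.6 RPKM, 2.08 ± 0.21, adjusted p = 0.00826). It was the list's call in each, 1 of 8 beside 7.84% of all genes called higher in Atf3KO and 0.103% in JunKO. In JunDKO mean levels were 1370 against 19992 RPKM in Scramble for the ferritin chain Fth1, 209 against 665 for the haem oxygenase gene Hmox1 and 44.8 against 20.3 for the iron exporter Slc40a1. Hp was lower in JunDKO, at 1.96 against 10.4 RPKM. In C57Bl/6EiJ vehicle TGEMs Slc40a1 (2.03 against 20.3 RPKM) and Hmox1 (199 against 665 RPKM) were lower than in Scramble. KLA (1% of all genes higher, 0.126% lower) and strain (0.386%, 0.772%) gave 0 of 8 calls by limma. Hp was also called higher in Atf3KO than in JunKO (1.07 ± 0.21, adjusted p = 0.00770), 1 of 8 beside 6.03% of all genes. The list's median was -0.26 in Atf3KO, -0.18 in JunKO, -1.15 in JunDKO and -0.76 in TGEMs beside 0.05, 0.01, 0.23 and -0.24 for all genes.

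Likeness of pattern was measured as Pearson's r of log2(RPKM + 1) over the 13 libraries, among 6378 genes with at least 16 RPKM in any of them. It is a description, in which libraries of a group are not independent points and the kind of cell sets much of the spread. The genes most like Marco were Hyou1, an endoplasmic reticulum chaperone (r = 0.986), Cd300e (0.985), Pilrb1 (0.985), the formyl peptide receptor gene Fpr1 (0.984) and the zinc transporter gene Slc39a4 (0.978). Fpr1 had group means of 108 RPKM in Scramble, 75.4 in JunKO, 67.6 in Atf3KO and 0.632 in JunDKO, and was at 0 in all TGEM groups. Cd300e went from 46.2 in Scramble to 0.611 in JunDKO and to 0 in TGEMs. The genes most like Olr1 were Gem (0.996), Il23a (0.993) and Ifnb1 (0.987), all of which were highest in Balb/cJ KLA. Those most like Cd36 were Slc36a4 (0.966), Dusp3 (0.963) and Fem1c (0.962), and those most like Msr1 were Trim30a (0.988), Dcaf13 (0.984) and Trim12c (0.984). Cd68 was most like 1810058I24Rik (0.980), Sirt2 (0.976) and Slc29a3 (0.972), Stab1 most like Pld4 (0.986), Tspan32 (0.984) and Rpl29 (0.983), Scarb1 most like Camk1 (0.915), Tbc1d9b (0.904) and Lmo2 (0.903), and Scarb2 most like Thbs1 (0.955), Fam219aos (0.937) and Ccr1 (0.933).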

How the data were processed

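PolyA RNA-seq values for 13 of 17 samples were used as deposited, in RPKM over exons. STAR with default settings placed the reads on mm10, or on a Balb/cJ version of it for that strain, and HOMER then gave the authors' RPKM over the exons of condensed genes. Versions and a strand option were not given in the sources used here, and 4 GRO-seq samples of the series were left aside.

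Genes that averaged 1 RPKM or more in the libraries of a fit were tested by limma-trend (limma 3.58.1, R 4.3.3) on log2(RPKM + 1), two-sided, with Benjamini-Hochberg adjustment over all tested genes. The 4 iBMDM groups were fitted together (8 libraries), the 5 TGEM libraries with treatment and strain, and TGEMs against Scramble over all 13 libraries, where the lone vehicle library is taken to have the spread of the other groups. That last comparison is therefore given as effect sizes, without p-values, and nothing is read from its calls. Fold changes on this scale understate those of low genes. Labels do not say that libraries came from separate cultures or animals, so p-values measure the spread between these libraries, which may be technical.

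Whole reads were recovered from the steps of the RPKM values (within 0.05 of a whole number in 100% of values up to 50 reads), giving the depths and the exact 95% intervals, which cover counting error only. GC content was taken from RefSeq transcripts for 98.8% of models, and its trend removed by a natural spline in an alternative. Alternatives were pseudocounts of 0.1 and 5, no filter, equal library medians, quantile normalization, limma-voom on recovered reads, GC correction, a log2 limit of 2, a replicate block, other sets of libraries and each library left out. The fits were also run on simulated data, and nothing is read from those runs here. Named genes were all members, up to 4 called genes per list and comparison with the largest change, and the 5 (Marco) or 3 genes most correlated with a member. Mrc1 and Colec12 are also given where they were not called, as chosen after their values were seen. Members and lists were chosen with earlier results of these data known. Some listed genes are not reported here by name. Python 3.11.15, pandas 2.3.3, scipy 1.17.1 and matplotlib 3.10.9 were used.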

Additional observations from a re-analysis of the deposited data

How the results depend on the processing

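Outside JunDKO, whose contrast chose the members, and TGEMs against Scramble, with 1 TGEM library, counts of members called held in most alternatives. With a log2 limit of 2, 1 member was called in Atf3KO (in place of 3). In Atf3KO 2 were called after GC correction and with quantile normalization. In Atf3KO against JunKO 2 were called with equal library medians, with quantile normalization and with limma-voom (in place of 1), with KLA 1 was called with equal library medians and with quantile normalization (in place of 0), and for strain 1 after GC correction (in place of 0). With 1 library left out, which leaves groups of 1 library or none, the members called changed in Atf3KO, in Atf3KO against JunKO and with KLA. They did not change in JunKO or for strain. Scarb1 in JunDKO was not past the limits without either JunDKO library or without Scramble replicate 2. In Atf3KO against JunKO more members were called without Atf3KO replicate 1 and without JunKO replicate 1. The causes were not tested. Of 676 values of single members under alternatives, 640 stayed on their side of the call or, for JunDKO, moved by less than 1 SD, 13 lost a call, 13 gained one, 10 moved further and 0 reversed past a call. Among the 640, 19 changed sign, none of them past a call.

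Replicate numbers were not taken to pair the iBMDM libraries, since the labels tie them to nothing shared and not every pair of groups deviated together. Deviations of libraries with the same number correlated by -0.21 between Atf3KO and Scramble, -0.21 between Atf3KO and JunKO and -0.12 between Atf3KO and JunDKO. Among groups with a single label date they correlated by 0.22 (Scramble and JunKO), 0.18 (Scramble and JunDKO) and 0.19 (JunKO and JunDKO). A replicate block left 3 members called in Atf3KO, 0 in JunKO and 1 in Atf3KO against JunKO, as without it. In Atf3KO against JunKO 3 members then had a limma adjusted p under 0.05, in place of 5. Over all genes the block left 8 calls in JunKO in place of 21. Other counts over all genes that moved by more than 1.5 times were, with a log2 limit of 2, 264 in Atf3KO (1339), 8 in JunKO, 151 in JunDKO (531), 169 in Atf3KO against JunKO (1038) and 68 for strain (120). After GC correction they were 820 in Atf3KO, 63 in JunKO, 616 in Atf3KO against JunKO and 75 for strain. Without the filter they were 9 in JunKO, 52 with KLA (117) and 36 for strain, with a pseudocount of 0.1 6 in JunKO, with limma-voom 186 with KLA and 306 for strain, in a single fit of all libraries 204 and 337, and with label date 65 with KLA. With 1 library left out they ran from 844 to 1770 in Atf3KO, 5 to 11 in JunKO, 264 to 368 in JunDKO, 529 to 1451 in Atf3KO against JunKO, 15 to 108 with KLA and 17 to 235 for strain. Depth limits Cd163, Olr1 in iBMDMs and Marco in TGEMs, each with few or no reads.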
